A study of Mus musculus with 22 samples.

Results

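The liver transcriptomes of 16 tumour-bearing mice, of 22 livers in all, were compared with each other within their own treatment group. The animals were male wild-type CD2F1 mice. C26 mice (n = 8) carried C26 colon carcinoma cells, a mouse tumour line used to induce cachexia, and C26-TDCA mice (n = 8) carried the same cells and received taurodeoxycholic acid, a conjugated secondary bile acid, at 10 mg/kg daily by intraperitoneal injection. The 6 sham livers (CT) came from mice given vehicle and served here as background only. The members are the livers that the labels place in the C26 and C26-TDCA groups. Each gene's log2 CPM, its count scaled to the size of the library, was centred on the mean of its own group, so that a value of 1 stands for a liver 1 log2 unit above the mean of the livers treated alike. No test between groups was made.

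A growing tumour makes the liver switch its secretion to acute phase proteins, which are driven by cytokines acting on hepatocytes. Hepatocytes also carry programmes that answer to other signals. Sterol synthesis is set by the transcription factor SREBP2, male-biased secretion and steroid metabolism by pulses of growth hormone, drug metabolism by nuclear receptors, and a large part of metabolism by the circadian clock and by feeding. Mice treated alike can differ in several of these programmes at once.

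Total counts per liver ranged from 17.5 M to 28.3 M, and 13895 of 15448 genes in the table passed the filter on low counts. At 10 CPM or more the SD expected from counting alone had a median of 0.054 log2 units and a maximum of 0.095, so that the larger spreads below lay far above counting error. All 56 pairs of livers of the same group differed beyond sampling noise (lowest chi-square per degree of freedom 10.9), and none was counted as a duplicate. The albumin gene Alb, the defining hepatocyte transcript, was present at 9833 to 17091 CPM in C26 and 10249 to 15249 CPM in C26-TDCA livers. C26 01, C26 02 and C26 03 stood apart from the other livers on the first axis of variation, and results that rest on them are given with and without them. In bulk tissue, fewer cells of a type and less RNA per cell cannot be told apart. Nothing in the labels says how tumours grew or how much each animal ate, and no batch or date is given.

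Most of the transcriptome was steady, and a small set of hepatocyte genes was not. The SD within groups, pooled over both groups with 14 degrees of freedom, had a median of 0.23 log2 units over all 13895 genes and exceeded 1 in 131 of them (0.943%). Among the 7312 genes with a mean of at least 10 CPM the median was 0.17 and 39 genes (0.533%) exceeded 1. The count of 131 was 252 with a prior count of 0.5 in place of 2, 256 with no filter on low counts and 63 from the median absolute deviation. The 25 genes with the largest SD at that abundance were enzymes of drug and steroid metabolism, carboxylesterases, male-biased hepatocyte genes, lipogenic genes, the bile acid enzyme Cyp7a1, the clock output factor Dbp, and a few secreted stress proteins. The SD exceeded 1 in both groups for 12 of the 25, and was numerically larger in C26 than in C26-TDCA livers for 24 of the 25. These genes were chosen by the SD pooled over both groups. Over all genes tested the SD was also larger in C26 livers, with a median of 0.24 against 0.21 and 247 against 104 genes above 1. In the sham livers it exceeded 1 for 2 of the 25, Dmbt1 and A2m.

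Drug-metabolising cytochromes were among the most variable genes. Cyp3a11 (chr5:145854426-145879964), the main xenobiotic-hydroxylating P450 of mouse liver, had an SD of 2.73 log2 units. It was at 0.0873 CPM at the lowest, 11.2 at the median and 293 at the highest of the 8 C26 livers, and at 2.58, 14.7 and 59.2 CPM in C26-TDCA livers. The lowest value, in C26 03, lay below the level of 3 counts (0.127 CPM), and the highest, in C26 02, was still below the sham range of 2011 to 2995 CPM. Cyp2c29, another P450 of xenobiotic metabolism, ranged from 1.75 CPM in C26 03 to 518 CPM in C26 02 but only from 22.6 to 97.6 CPM over the C26-TDCA livers. Cyp2a5, the coumarin hydroxylase, had the same extremes in C26 livers (1.83 and 127 CPM) around a median of 69.1 CPM. Cyp2c50 and Cyp2c54 had SDs of 1.35 and 1.26. Genes of the Cyp2c, Cyp3a, Ces1, Hsd3b and Mup clusters are near-identical copies, and the split of reads among them is uncertain.

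**Figure D1:**
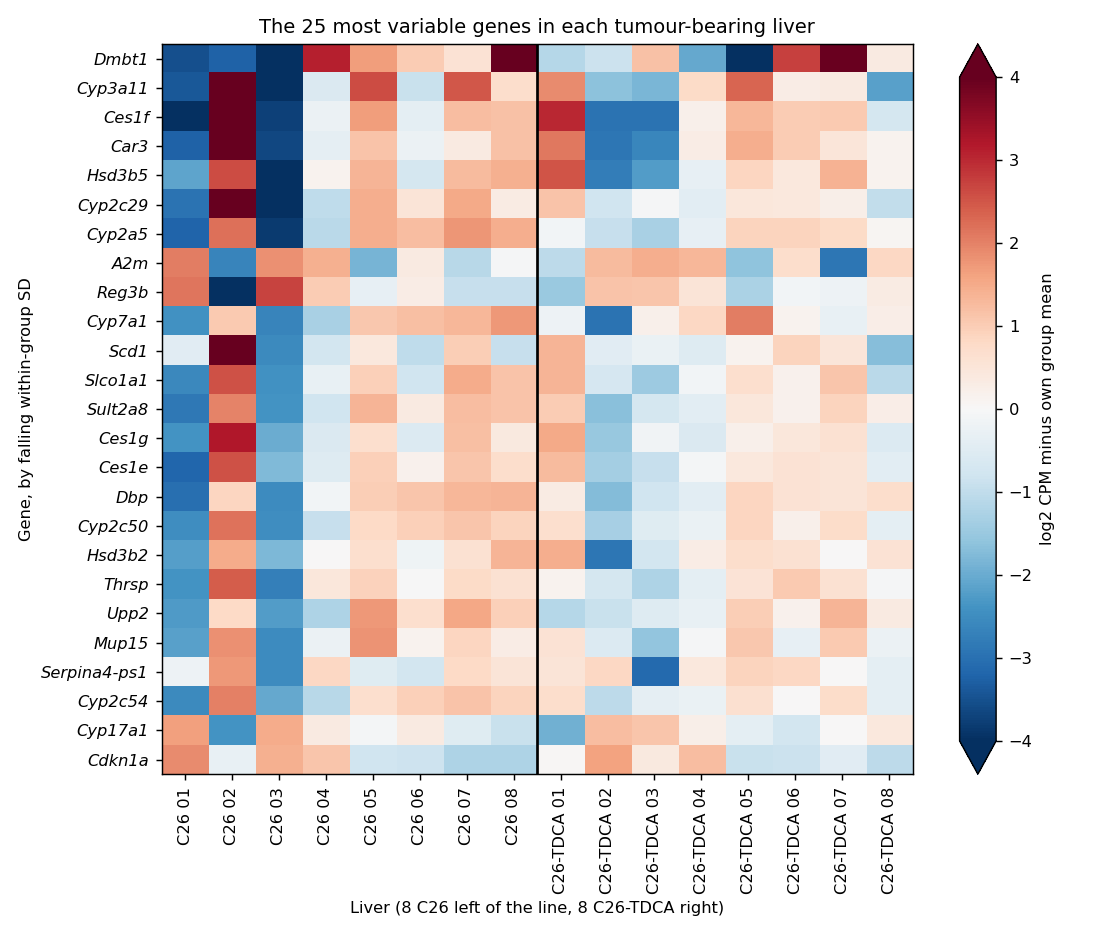
Each row is 1 of the 25 most variable genes and each column 1 liver, coloured by log2 CPM minus the mean of its own group. C26 01 and C26 03 are blue and C26 02 red for most metabolic genes, with the colours turned for A2m, Reg3b and Cyp17a1.

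The male-biased and growth-hormone-dependent genes spread in the same way. Car3 (chr3:14863512-14872523), the muscle-type carbonic anhydrase that male liver makes in large amounts, had an SD of 2.29. Its level was 0.742 CPM at the lowest, 11 at the median and 289 at the highest in C26 livers and 0.871, 9.21 and 30.5 CPM in C26-TDCA livers. It was near 1 CPM in C26 01, C26 03, C26-TDCA 02 and C26-TDCA 03 and stood at 289 CPM in C26 02 alone, against 3842 to 4445 CPM in sham livers. Hsd3b5, a male-specific steroid reductase, ranged from 0.480 to 55.2 CPM in C26 and from 0.720 to 30.9 CPM in C26-TDCA livers (SD 1.98). Slco1a1, a male-biased organic anion transporter, had an SD of 1.5, Sult2a8, a bile acid sulfotransferase, one of 1.43, and the major urinary protein gene Mup15 one of 1.31. The carboxylesterases Ces1f, Ces1g and Ces1e, enzymes of ester and lipid hydrolysis, had SDs of 2.57, 1.42 and 1.41. Ces1f was lowest in C26 01 (0.109 CPM) and highest in C26 02 (106 CPM).

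Lipogenic and bile acid genes followed. Scd1, the stearoyl-CoA desaturase, had an SD of 1.58, of which a single liver carried most: C26 02, at 2212 CPM, gave 52.4% of the within-group sum of squares. It was the one gene of the 25 in which 1 liver passed 50%. The other C26 livers lay between 19.4 and 226 CPM and the C26-TDCA livers between 37.7 and 314 CPM, so that C26 02 alone reached the sham range of 1828 to 3804 CPM. Thrsp, a regulator of lipogenesis, ranged from 4.5 to 162 CPM in C26 livers (SD 1.34). Cyp7a1 (chr4:6265612-6275633), the rate-limiting enzyme of bile acid synthesis, was at 2.23 CPM at the lowest, 30.04 at the median and 48.3 at the highest in C26 livers and at 2.73, 24.3 and 90.05 CPM in C26-TDCA livers (SD 1.63). It was low in C26 01, C26 03, C26 04 and C26-TDCA 02 and highest in C26-TDCA 05.

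A second set varied in the opposite sense. A2m (chr6:121635376-121679227), alpha-2-macroglobulin, a protease inhibitor of the acute phase, was at 510.1 CPM at the lowest, 3572 at the median and 13022 at the highest in C26 livers and at 394, 4975 and 7966 CPM in C26-TDCA livers (SD 1.69), while no sham liver exceeded 10.3 CPM. C26 01 and C26 03, the livers with almost no Car3, had the most A2m of the C26 group, and C26 02, with the most Car3, had the least. Reg3b, a secreted lectin of the regenerating family, was likewise lowest in C26 02 (1.85 CPM) and highest in C26 03 (197 CPM; SD 1.63). Cyp17a1, the steroid 17-hydroxylase, was lowest in C26 02 (23 CPM) and highest in C26 01 (375 CPM; SD 1.17). The cell cycle inhibitor Cdkn1a ranged from 4.03 to 36 CPM in C26 livers (SD 1.15). The largest SD of all belonged to Dmbt1 (chr7:131032053-131121630), a mucin-like scavenger receptor protein of ducts and epithelia, at 3.0 log2 units. It stood at 87.9 CPM in C26 08, 29.3 in C26 04 and 22.4 in C26-TDCA 07, below 1 CPM in 7 livers, and at 26.2 CPM in 1 sham liver, and it did not follow the Car3 order.

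Other acute phase proteins had smaller SDs than A2m. Saa1, serum amyloid A1, spanned 21985 to 31152 CPM in C26 and 21806 to 28949 CPM in C26-TDCA livers, an SD of 0.16 log2 units at a level of 26 to 91.6 CPM in sham livers. The siderophore binder Lcn2 had an SD of 0.19, the fibrinogen chain Fgb one of 0.16, and Apcs, serum amyloid P, one of 0.079. Of 32 acute phase genes tested, the median SD was 0.19, against 0.17 over all genes of at least 10 CPM and 0.23 over all genes tested. Of the 32 acute phase genes 5 exceeded 0.5, against 1927 of all 13895 genes tested and 216 of the 7312 genes of at least 10 CPM. A2m was the only one above 1, with Cd14 (0.72), the lipopolysaccharide co-receptor, and Il1rn (0.66), the interleukin-1 receptor antagonist, next. The list medians were higher for drug metabolism (0.71, 7 of 24 above 1) and growth hormone and sex-biased genes (0.74, 7 of 23). That of cholesterol synthesis was higher too, at 0.59 with 2 of 20 above 1. Over all genes tested the median was 0.23, with 131 of 13895 (0.943%) above 1. Negative acute phase proteins, which fall in inflammation, had a median of 0.24. None of 12 was above 1, which at 0.943% of all genes tested does not set the list apart. The transcortin gene Serpina6 (0.79) led the negative acute phase proteins and Gc (0.063), the vitamin D binding protein, came last. The least variable genes of at least 10 CPM included Gdap2 (0.035), the membrane trafficking genes Vapb (0.045) and Rab14 (0.053), and Wdr33 (0.049) and Ewsr1 (0.053), which bind RNA. Gdap2 stayed between 31.8 and 33.5 CPM over the 8 C26 livers.

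**Figure D2:**
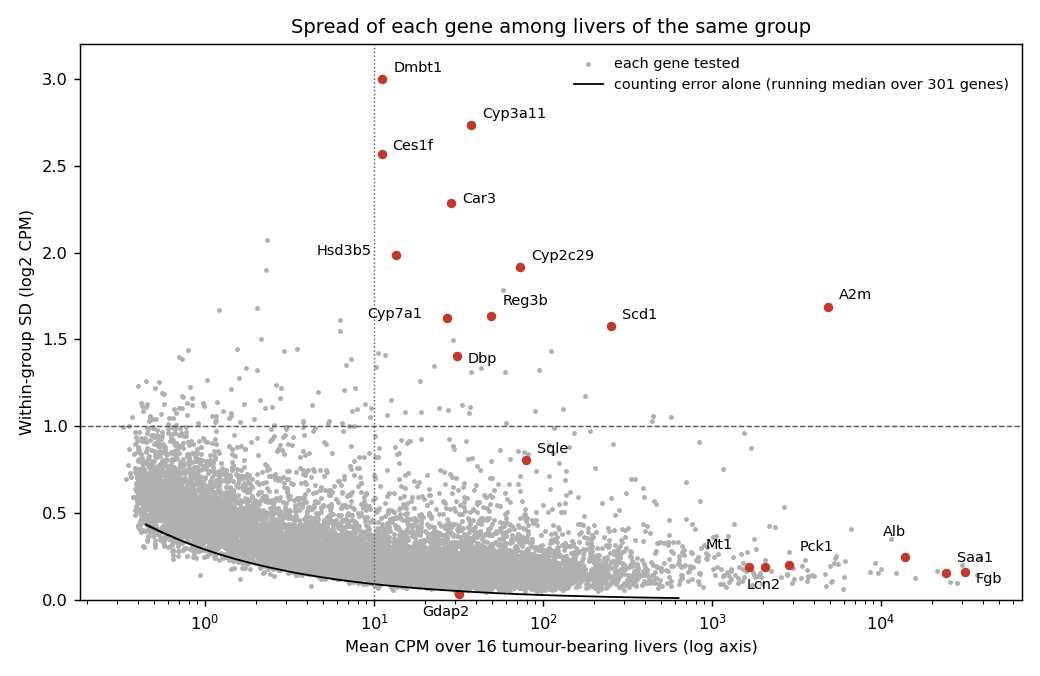
Each point is a gene, with its mean CPM over the 16 livers on a log axis and its within-group SD in log2 CPM; the black line is the spread that counting alone would give, the dashed line an SD of 1 and the dotted line 10 CPM. Saa1, Fgb, Lcn2, Mt1 and Alb stand at 0.16, 0.16, 0.19, 0.19 and 0.25, whereas A2m stands at 1.69.

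A few livers carried much of this. Of the 131 genes with an SD above 1, the liver farthest from its group mean was C26 01 for 30 (22.9%), C26 02 for 24 (18.3%), C26 03 for 15 (11.5%) and C26-TDCA 02 for 14 (10.7%), while C26-TDCA 04, 05 and 06 were the farthest for none. Without C26 01, C26 02 and C26 03 the count of genes above 1 was 113 over the other 13 livers. Whether these were the same genes was not tested. In principal components of the centred values, the first axis held 24.2% of the variance and the second 13.4%. Ces1f, Cyp3a11 and Car3 had the largest positive weights on the first axis, and A2m, Reg3b and Cyp17a1 the largest negative ones. C26 01 and C26 03 lay at -37.9 and -35 on that axis, C26-TDCA 03 and C26-TDCA 02 at -20.9 and -19.4, and C26 02 at 31.6.

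Measures of the libraries moved with these axes in part. The first 2 axes were set against total counts, the number of genes detected, the percentage of counts in the 20 top genes, the percentage in mitochondrial genes, and each library's slopes on length and on GC content. Of these 12 relations 3 passed an adjusted p of 0.05 in two-sided permutation tests that shuffled the livers within groups (n = 16, 100000 shuffles). The share of counts in the 20 most abundant genes, mostly secreted proteins, ran against the first axis at r = -0.78 (permutation p = 0.000760, adjusted p = 0.00912; rho = -0.77, permutation p = 0.00124, adjusted p = 0.00744). It was -0.73 without C26 02 and C26-TDCA 02, but -0.04 over the 13 livers without C26 01, C26 02 and C26 03. The length slope ran against it at r = -0.68 (permutation p = 0.00570, adjusted p = 0.0342; rho = -0.83, permutation p = 0.000330, adjusted p = 0.00396), and at -0.83 without C26 06 and C26-TDCA 07. It missed the threshold when C26 01, C26 04, C26 05, C26-TDCA 04 or C26-TDCA 07 was left out singly (-0.77 to -0.53 over all single omissions). The GC slope ran with the second axis at r = 0.67 (permutation p = 0.0103, adjusted p = 0.0410; rho = 0.45, permutation p = 0.0938, adjusted p = 0.251). It was 0.39 without C26 06 and C26-TDCA 08, so that this relation rests on those livers; leaving out livers singly gave 0.29 to 0.86, and it missed the threshold without any one of C26 01, 02, 04, 05, 06 or 08 or C26-TDCA 04, 06 or 08. Total counts gave -0.38 with the first axis (permutation p = 0.184, adjusted p = 0.271). The part of these library measures in the gene results was not tested beyond the covariate fits given below.

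To find which genes moved together, the centred log2 CPM of a marker gene was added to a model with a mean for each group, and every other gene was tested for a slope on it with edgeR's quasi-likelihood test and Benjamini-Hochberg adjustment over all 13894 genes. A slope of 1 means that a gene moved by 1 log2 unit for each log2 unit of the marker. Car3 was taken for the growth-hormone-dependent male programme, A2m for the acute phase, Dbp for the clock, Sqle for sterol synthesis, Cyp7a1 for bile acid synthesis and S100a8 for neutrophils.

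With Car3, 717 genes had a positive slope (5.16%) and 561 a negative one (4.04%). Its closest follower was Ces1f, with a slope of 1.09 (SE 0.056, adjusted p = 5.21e-10), and Ces1f ran parallel to Car3 in each group (r = 0.98 in C26 and 0.97 in C26-TDCA livers). Ugt2b1, a glucuronosyltransferase (0.31), Fmo1, a flavin monooxygenase (0.29), Slc2a2, the hepatocyte glucose transporter (0.31), and Aldh1a1, a retinaldehyde dehydrogenase (0.23), also rose with Car3. Cyp17a1 fell as Car3 rose, with a slope of -0.47 (SE 0.041, adjusted p = 1.36e-06), and so did Reg3b (-0.64), the integrin chain Itgb3 (-0.24) and the lipid flippase gene Atp10d (-0.28). Of 24 drug metabolism genes 16 were positive and 0 negative, with a median slope of 0.27 against -0.0024 over all genes tested. Cyp3a11 led them (slope 0.96, SE 0.11, adjusted p = 1.30e-05). The pair of Car3 and Cyp3a11 gave r = 0.89 (permutation p = 4.00e-05, adjusted p = 0.000213) and Spearman's rho = 0.86 (permutation p = 0.000180, adjusted p = 0.000960), with 0.94 in the 8 C26 and 0.79 in the 8 C26-TDCA livers. In the growth hormone and sex-biased list (median slope 0.14) 11 of 22 were positive, with Hsd3b5 at 0.78 and Slco1a1 at 0.57, and 1 was negative, Sult1e1 (-0.27), the female-biased estrogen sulfotransferase, which was named after its value was seen.

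Zonal genes split with Car3. Genes of the pericentral hepatocytes, which surround the central vein, were called positive for 12 of 16 and negative for 0 (median slope 0.13), with Cyp1a2 at 0.35, the ammonium transporter Rhbg at 0.21 and the organic cation transporter Slc22a3 at 0.17, whereas the abundant pericentral enzyme Cyp2e1 gave 0.036 (SE 0.026, adjusted p = 0.465). Of 16 periportal genes 1 was positive and 1 negative. Lipogenesis genes were positive for 11 of 21. Markers of sinusoidal endothelium, the vessel lining of the liver lobule, ran the other way: 11 of 13 had a negative slope (median -0.081), with Oit3 at -0.16 and Lyve1, a hyaluronan receptor, at -0.14. Their summed level ran from 397 to 698 CPM in C26 livers, lowest in C26 02 and highest in C26 03, and from 545 to 722 CPM in C26-TDCA livers. Acute phase genes were negative for 12 of 32 such as A2m (-0.54) and Fgb (-0.064), and positive for 1, C-reactive protein (Crp, 0.12). Without C26 02 the endothelial count was 7 and the lipogenic count 7. Over the 13 livers without C26 01, C26 02 and C26 03, 243 genes were called in all, with 5 drug metabolism, 1 pericentral and 1 endothelial gene among them. The acute phase list then had 2 negative genes and 0 positive, and the lipogenic list 3 positive. In C26-TDCA livers alone 2 acute phase genes were negative and 0 lipogenic genes positive.

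A2m had 603 genes with a positive slope (4.34%) and 707 with a negative one (5.09%). The genes closest to it in the positive sense were Dnhd1, a dynein heavy chain domain gene (slope 0.26, SE 0.029, adjusted p = 8.54e-05), Prelp, an extracellular matrix leucine-rich protein (0.38), the phosphatase Acpp (0.35) and Sox9, a transcription factor of bile duct cells and their progenitors (0.40). Prelp ran from 38.7 CPM in C26 02 to 263 in C26 01, and Sox9 from 11.2 to 49.5 CPM in the same livers. In the negative sense the closest were Gstp1, a glutathione transferase (slope -0.25, SE 0.020, adjusted p = 2.46e-06), Cyp3a25 (-0.39), Cyp2f2 (-0.48), and the pheromone carriers Mup9 (-0.51) and Mup2 (-0.46). Gstp1 correlated with A2m at -0.98 in C26 and -0.95 in C26-TDCA livers. Of 31 other acute phase genes 7 had a positive slope (22.6%, against 4.34% of all genes) and 1 a negative one (3.23%, against 5.09%). Cd14 at 0.32 and Il1rn at 0.26 were among the positive ones, while Saa1 gave -0.038 (SE 0.024, adjusted p = 0.353). The positive count was 3 without C26 03, and 4 without C26 01, C26 02, C26 07, C26-TDCA 03 or C26-TDCA 05. It was 4 with length and GC slopes as covariates, and 1 over the 13 livers or in C26 livers alone. With Car3 as a covariate, or in C26-TDCA livers alone, it was 0. The pair of A2m and Saa1 gave r = -0.41 (permutation p = 0.131, adjusted p = 0.176) and Spearman's rho = -0.61 (permutation p = 0.0220, adjusted p = 0.0392), and that of A2m and Fgb r = 0.61 (permutation p = 0.0181, adjusted p = 0.0322) and Spearman's rho = 0.63 (permutation p = 0.0143, adjusted p = 0.0287). The first passed by rho alone, and by r only without C26 06 (-0.59). The second missed the threshold without any one of C26 01, 02 or 03 or C26-TDCA 01, 03, 04 or 05 (0.45 to 0.74 over single omissions) and was 0.32 over the 13 livers. Saa1 peaked in C26 06 and C26-TDCA 07, which were not the livers with most A2m.

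Drug metabolism genes were negative with A2m for 17 of 24 (median slope -0.39, against 0.0065 over all genes tested) and growth hormone and sex-biased genes for 14 of 23 (median -0.20). Cholesterol synthesis was negative for 16 of 20 (median -0.28), pericentral genes for 10 of 16 (median -0.16) and nuclear subunits of oxidative phosphorylation for 16 of 30 (median -0.073). Endothelial markers were positive for 10 of 13 (median 0.10). In the unfolded protein response list 5 of 27 were positive and 0 negative. These were the chaperones Hspa5 (0.11) and Sdf2l1 (0.11), the disulfide isomerase Pdia4 (0.12), the stress-induced Chac1 (0.17) and asparagine synthetase, Asns (0.28), of which all but Asns were named after their values were seen. The calls were fewest without C26 01 (688) and C26 03 (778). The cholesterol count was 7 without C26 01, 8 without C26 03, 9 without C26-TDCA 03 and 10 without C26 07. The pericentral count was 5 without C26 01 or C26 02 and 6 without C26 03, the endothelial count 6 without C26 02, and the stress count 3 without C26 01 or C26 02. The respiratory count was 10 without C26 01, 9 without C26-TDCA 07 and 25 without C26 06. With Car3 as a covariate 59 genes were called with A2m, including 4 negative growth hormone and sex-biased genes, 1 drug metabolism gene and no endothelial marker, and none of the cholesterol synthesis, pericentral and respiratory genes. Over the 13 livers 138 genes were called, with 6 drug metabolism, 9 growth hormone and sex-biased, 2 cholesterol synthesis, 1 pericentral and 0 respiratory genes negative and 1 endothelial marker positive. With the length and GC slopes of the libraries as covariates the count was 297. The negative counts were then 3 for cholesterol synthesis, 2 for pericentral genes, 2 for respiratory subunits, 11 for drug metabolism and 11 for growth hormone and sex-biased genes, and the positive ones 5 for endothelial markers and 1 for the stress list.

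**Figure D3:**
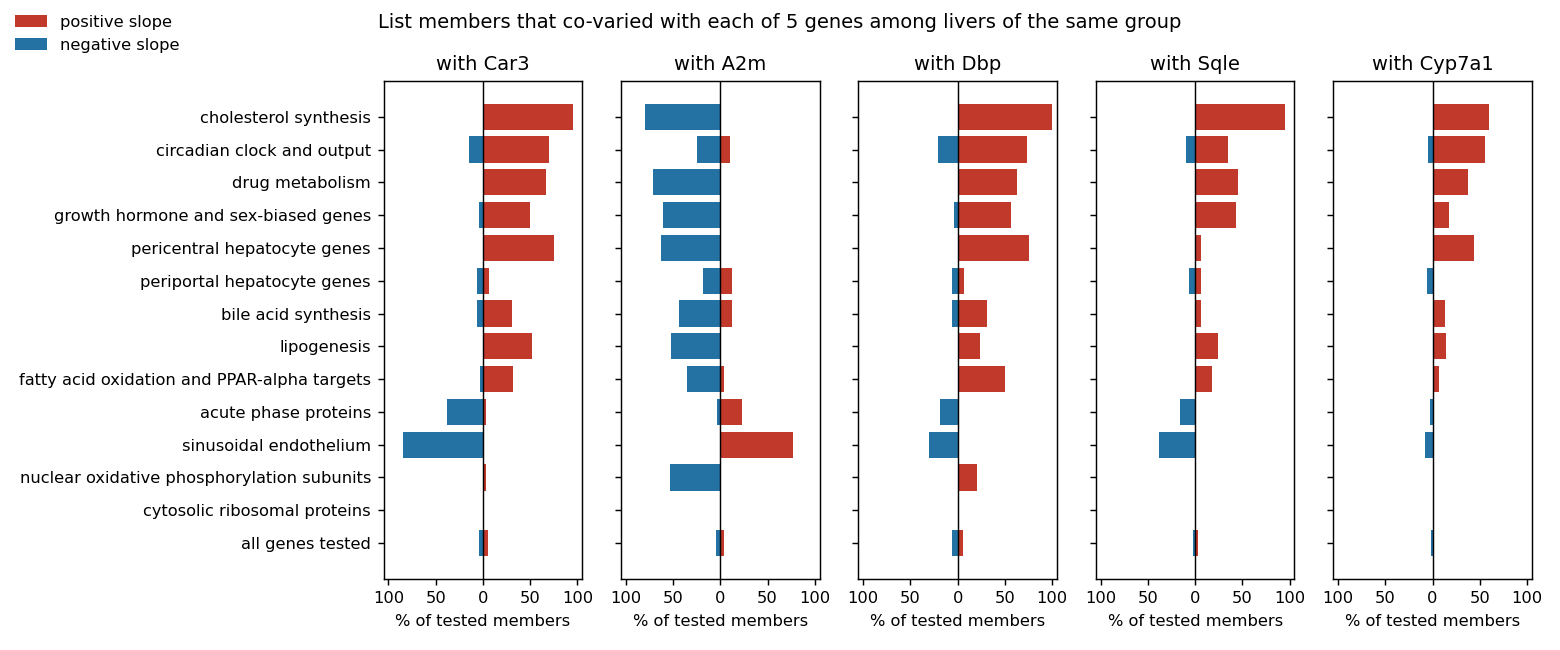
Bars give the percentage of tested members of each list that had a positive slope (red, right) or a negative slope (blue, left) at an adjusted p under 0.05 on the gene named above the panel, in edgeR's quasi-likelihood test over 16 livers. Cholesterol synthesis was positive with Car3, Dbp and Sqle, and for 60% of its genes with Cyp7a1, and negative with A2m. Ribosomal proteins were called with none of the 5, and all genes tested lie near 0.

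Dbp (chr7:45705088-45710203), a PAR-bZIP factor that the clock switches on directly and that binds D-box sequences, ranged from 2.61 CPM in C26 01 and 3.71 in C26 03 to 55.6 in C26 08, with a C26 median of 41.3 CPM. In C26-TDCA livers it was at 7.39 CPM at the lowest, 33.3 at the median and 44.7 at the highest, lowest in C26-TDCA 02 and next in C26-TDCA 03. With Dbp, 840 genes had a positive slope (6.05%) and 864 a negative one (6.22%). The top follower was Per3, a period gene that is itself a clock output, with a slope of 0.78 (SE 0.052, adjusted p = 6.12e-08), followed by Tef, a PAR-bZIP relative of Dbp, at 0.35 (SE 0.026, adjusted p = 1.57e-07). Per3 ran from 3.33 CPM in C26 01 to 42 in C26 08 and from 9.32 CPM in C26-TDCA 02 to 44.4 in C26-TDCA 06. Of 19 other clock genes 14 were positive and 4 negative (median slope 0.23, against -0.00093 over all genes tested). The negative ones were Arntl, the BMAL1 activator that peaks opposite to Dbp (slope -0.63, SE 0.065, adjusted p = 9.78e-06), its partner Clock (-0.23), the repressor Cry1 (-0.33) and the D-box repressor Nfil3 (-0.19), and the one not called was Per1 (slope 0.10, SE 0.048, adjusted p = 0.199). Clock, Cry1 and Nfil3 were named after their values were seen.

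Arntl moved against Dbp liver by liver. It was highest in C26 01 (17.6 CPM), C26 03 (17.4 CPM) and C26-TDCA 02 (15.2 CPM), the livers with least Dbp, and at the median 5.13 CPM in C26 and 5.4 CPM in C26-TDCA livers. The pair gave r = -0.90 (permutation p = 1.00e-05, adjusted p = 8.00e-05) and Spearman's rho = -0.84 (permutation p = 2.00e-05, adjusted p = 0.000320), where 1e-05 is the smallest p that these permutations can give. It was -0.95 in the 8 C26 and -0.88 in the 8 C26-TDCA livers, and -0.89 over the 13 livers. In the sham livers Arntl lay at 0.444 to 2.22 CPM and Dbp at 99.8 to 163 CPM. Sampling times are not in the labels.

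The proximal promoters of the 2 top Dbp followers are shown for the clock motifs in them, from RefSeq on GRCm38.p6, with the 250 bases before the gene start on the gene's own strand and the motif in capitals. The D-box TTATGTAA, searched on both strands, occurs in 0.688% of 10325 tested genes with a promoter in the RefSeq table. Per3 (chr4:151044666-151044915, minus strand) holds it at 2 places, beginning 205 and 158 bases before the start, and is the only one of 16 clock genes with it. The E-box CACGTG, the site of the BMAL1 and CLOCK complex, occurs in 9.73% of the promoters and in 5 of the 16 clock genes. Both listed starts of Tef have it; the one shown (chr15:81802423-81802672, plus strand) holds it 127 bases before the start. A match is a description of letters only.
Per3: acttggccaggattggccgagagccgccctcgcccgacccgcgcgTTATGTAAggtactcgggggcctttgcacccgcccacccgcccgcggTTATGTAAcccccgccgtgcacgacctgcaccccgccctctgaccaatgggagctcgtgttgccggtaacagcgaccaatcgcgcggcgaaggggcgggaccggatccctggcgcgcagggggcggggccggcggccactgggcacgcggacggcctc
Tef: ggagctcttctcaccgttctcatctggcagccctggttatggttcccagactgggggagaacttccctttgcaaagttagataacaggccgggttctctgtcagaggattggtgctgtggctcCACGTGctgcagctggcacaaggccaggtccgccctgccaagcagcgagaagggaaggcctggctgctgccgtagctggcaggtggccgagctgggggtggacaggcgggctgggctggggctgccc

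Other genes that rose with Dbp were Sord, sorbitol dehydrogenase (0.65), Igfals, the acid-labile subunit that carries IGF1 (0.28), Cyp1a2 (0.59) and the replication factor gene Mcm10 (0.33). Those that fell were Sgk1, a glucocorticoid-induced kinase (-0.36), the sphingomyelin synthase Sgms1 (-0.31), the choline kinase Chka (-0.40) and Cdkn1a (-0.74). All 20 cholesterol synthesis genes, 12 of 16 pericentral genes, 15 of 24 drug metabolism genes and 14 of 28 fatty acid oxidation genes had a positive slope on Dbp. Leaving out C26 01 brought the calls from 1704 to 702, and leaving out C26 03 to 1008. The drug metabolism count was 9 without either, the pericentral count 4 and 7, and the fatty acid oxidation count 4 without C26 01. With Car3 as a covariate 453 were called, 7 positive and 2 negative clock genes among them, and over the 13 livers 292, with 8 positive and 1 negative clock gene. With length and GC slopes as covariates the count was 966, and the positive counts were 6 for pericentral and 7 for fatty acid oxidation genes. With Car3 as a covariate the positive counts were 2 for cholesterol synthesis, 6 for drug metabolism, 2 for pericentral and 1 for fatty acid oxidation genes, and over the 13 livers 2, 7, 3 and 3 in the same order.

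Sterol synthesis genes moved together. Sqle (chr15:59315077-59331192), squalene epoxidase, was at 31.1 CPM at the lowest, 98.4 at the median and 132 at the highest in C26 livers and at 26.2, 83 and 104 CPM in C26-TDCA livers, with an SD of 0.81. It was low in C26 01 (33 CPM), C26 03 (31.1), C26-TDCA 02 (38.9), C26-TDCA 03 (26.2) and C26-TDCA 08 (38.5), and between 76 and 132 CPM in the other livers. The sham livers lay at 15.2 to 30.1 CPM. With Sqle, 373 genes had a positive slope (2.68%) and 298 a negative one (2.14%). Of 19 other enzymes of the pathway 18 were positive, the exception being the isomerase Ebp (slope 0.12, SE 0.065, adjusted p = 0.358), the least variable of the list (SD 0.22). The median slope of the list was 0.65, against -0.0048 over all genes tested. The steepest were Idi1, the isopentenyl diphosphate isomerase (slope 1.33, SE 0.069, adjusted p = 5.07e-10), and Hmgcs1, HMG-CoA synthase (slope 1.31, SE 0.080, adjusted p = 3.29e-09), which moved more than Sqle itself. The lanosterol demethylase Cyp51 (1.06), Nsdhl (1.13) and Msmo1 (1.03), which remove the methyl groups of lanosterol, moved about in proportion to it.

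Hmgcs1 ran from 24.5 CPM in C26 01 to 175 in C26 07 and from 22.2 CPM in C26-TDCA 03 to 139 in C26-TDCA 01. Its promoter is shown for a sterol element bound by SREBP, TCACCCCAC, searched on both strands in the 250 bases before the start. The element begins 137 bases before the start of Hmgcs1 (chr13:119690101-119690350, plus strand, RefSeq, GRCm38.p6) and is in capitals. It occurs in 0.707% of all promoters searched and in 1 of 15 cholesterol synthesis genes in the table, which is Hmgcs1.
Hmgcs1: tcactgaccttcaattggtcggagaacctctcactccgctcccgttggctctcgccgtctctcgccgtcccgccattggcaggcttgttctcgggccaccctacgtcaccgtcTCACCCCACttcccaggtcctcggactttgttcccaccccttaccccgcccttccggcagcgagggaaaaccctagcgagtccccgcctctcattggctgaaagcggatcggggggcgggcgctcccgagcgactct

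Of 14 sterol uptake and SREBP2 target genes, a list that shares at least Idi1 with the synthesis list, 6 were positive with Sqle and 0 negative. The median pairwise r of this list was 0.12 in C26 and -0.038 in C26-TDCA livers. Insig1, the sterol-responsive brake on SREBP processing, ran from 23.5 to 105 CPM in C26 and from 17.6 to 89.2 CPM in C26-TDCA livers. Its pair with Sqle gave r = 0.95 (permutation p = 1.00e-05, adjusted p = 8.00e-05) and Spearman's rho = 0.79 (permutation p = 0.000570, adjusted p = 0.00182), with 0.96 in the 8 C26 and 0.94 in the 8 C26-TDCA livers. In the negative sense Sqle was followed by Qsox2, a sulfhydryl oxidase (-0.46), Limk2, a kinase of the actin skeleton (-0.45), Sgk1 (-0.57) and the iron hormone Hamp (-0.54). Median pairwise r among the cholesterol synthesis genes was 0.92 in C26 and 0.89 in C26-TDCA livers, against 0.0026 and 0.0017 over all genes of at least 10 CPM. Leaving out any 1 liver kept the count at 18 of 19. Over the 13 livers it was 15, and with Car3 as a covariate 7. The total with Sqle was 267 without C26 01 and 293 without C26 03, and 37 over the 13 livers.

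The same pathway was positive with Car3 (19 of 20), which held at 17 over the 13 livers, and with Dbp (20 of 20), which fell to 2 over the 13 livers. Transcripts of sterol synthesis enzymes, of Car3 and of Dbp were therefore low together, relative to the group, in C26 01 and C26 03. C26-TDCA 02 and C26-TDCA 03 lay in the same direction, whereas C26-TDCA 08 had low Sqle at a Dbp of 40.1 CPM, above its group median.

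**Figure D4:**
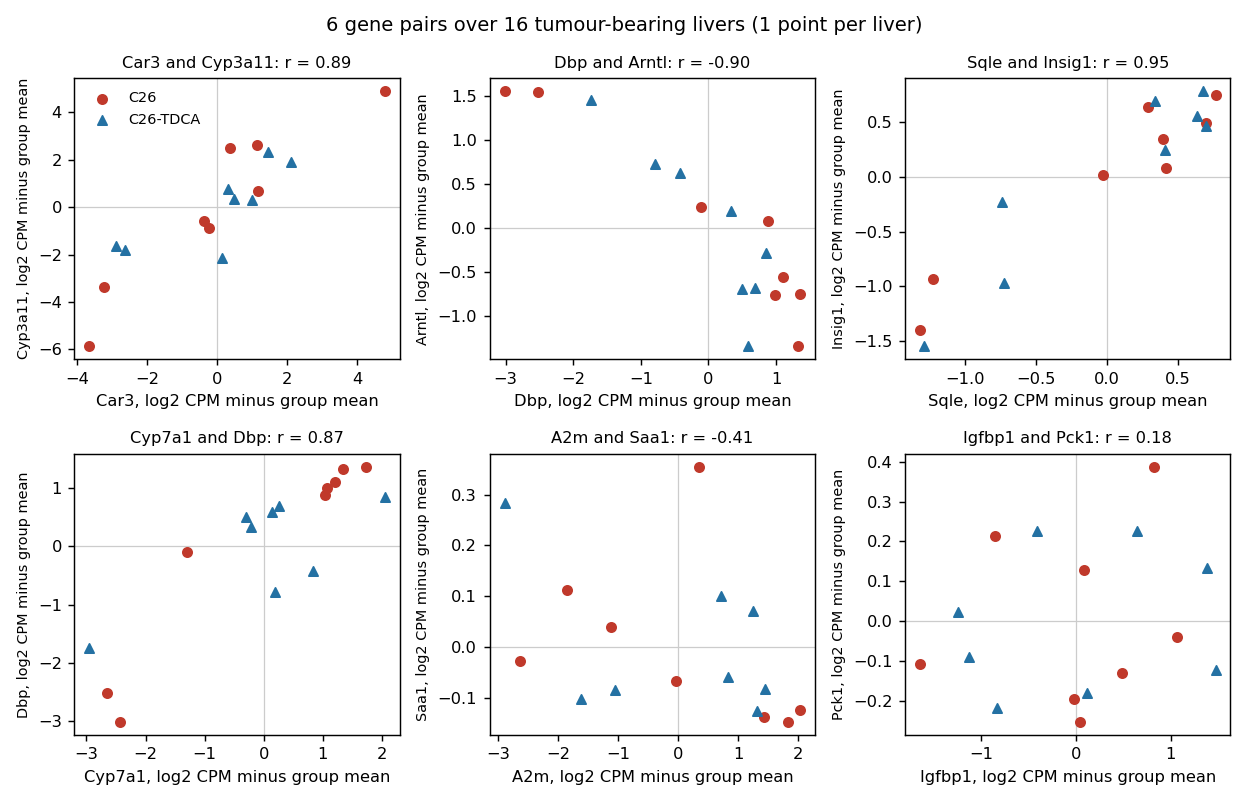
Each panel plots log2 CPM minus the group mean of 2 genes, with 1 point per liver (red circles C26, blue triangles C26-TDCA). Car3 and Cyp3a11, Sqle and Insig1, and Cyp7a1 and Dbp rise together, Dbp and Arntl run opposite, and the pairs A2m with Saa1 and Igfbp1 with Pck1 did not pass the threshold by r.

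Cyp7a1 had fewer followers, 287 with a positive slope (2.07%) and 166 with a negative one (1.19%). Ttc39c, a tetratricopeptide gene (slope 0.34, SE 0.047, adjusted p = 0.00471), the acyl-CoA synthetase Acsm5 (0.29), Sord (0.52) and the aldo-keto reductase Akr1c20 (0.29) rose with it, and Slc45a3 (-0.18), the early-response gene Ier5 (-0.25), Sgms1 (-0.25) and Cdkn1a (-0.56) fell. Positive slopes were called for 12 of 20 cholesterol synthesis, 11 of 20 clock, 9 of 24 drug metabolism and 7 of 16 pericentral genes. Without C26 01 these counts were 0, 3, 0 and 1 in the same order. Within bile acid synthesis 2 of 15 were positive, Akr1c6 (0.41) and the steroid reductase Akr1d1 (0.23, named after its value was seen). Cyp8b1, the 12-hydroxylase that sets the cholic acid share, was not called (slope 0.16, SE 0.083, adjusted p = 0.294). It was lowest in C26 04 (33.8 CPM) and C26-TDCA 06 (34.5 CPM) and highest in C26 05 and C26-TDCA 05 (126 and 127 CPM). Its pair with Cyp7a1 gave r = 0.41 (permutation p = 0.132, adjusted p = 0.176) and Spearman's rho = 0.43 (permutation p = 0.102, adjusted p = 0.149), with 0.69 in the 8 C26 and 0.04 in the 8 C26-TDCA livers. Of the 3 pairs with Cyp7a1 that with Dbp had the highest r. It gave r = 0.87 (permutation p = 0.000290, adjusted p = 0.000928) and Spearman's rho = 0.86 (permutation p = 0.000180, adjusted p = 0.000960), with 0.96 in the 8 C26 and 0.72 in the 8 C26-TDCA livers, and 0.78 over the 13 livers. Its pair with Sqle gave r = 0.65 (permutation p = 0.00970, adjusted p = 0.0194) and Spearman's rho = 0.46 (permutation p = 0.0841, adjusted p = 0.135), and r was 0.49 without C26 03 and C26-TDCA 02 and 0.34 over the 13 livers. It missed the threshold without C26 01 (0.57) or C26 03 (0.55).

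The Cyp7a1 calls rested on few livers. They fell from 453 to 34 without C26 01, 41 without C26 03, 232 without C26-TDCA 02, 262 without C26 07 and 289 without C26 08. No gene was called over the 13 livers or with Car3 as a covariate in edgeR's quasi-likelihood test, whereas 91 were called with length and GC slopes as covariates. DESeq2 called 881 in the 16 livers and 2668 genes had an unadjusted p under 0.05 in edgeR.

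No gene passed the test with the neutrophil marker. S100a8, a subunit of the neutrophil protein calprotectin, was at 1.21 CPM at the lowest, 2.11 at the median and 4.37 at the highest in C26 and at 0.876, 1.89 and 3.92 CPM in C26-TDCA livers. No gene was called with it in edgeR's quasi-likelihood test in either direction (0% and 0% of 13894), 1288 had an unadjusted p under 0.05, and DESeq2's Wald test called 58. The smallest adjusted p in edgeR was 0.0679. Its partner S100a9 was highest in the same livers, C26 04 (8.7 CPM) and C26-TDCA 06 (8.18 CPM), and the pair gave r = 0.57 (permutation p = 0.0294, adjusted p = 0.0470) and Spearman's rho = 0.34 (permutation p = 0.224, adjusted p = 0.275). Of 19 markers of monocytes and neutrophils 12 were tested, and their sum ran from 28.8 to 68.5 CPM in C26 and from 27.6 to 55.8 CPM in C26-TDCA livers, against 5.58 to 10.2 CPM in sham livers. The granule and lineage genes Ly6g, Ngp, Camp, Ltf, Elane and Mpo were not among the genes tested. The pair missed the threshold without any one of C26 01, 04, 05, 06 or 08 or C26-TDCA 01, 02, 03, 04, 06, 07 or 08 (0.38 to 0.65 over single omissions).

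Of the 16 gene pairs, 10 passed an adjusted p of 0.05 by r. Those not yet described include the lipogenic pair Fasn, fatty acid synthase, and Scd1, at r = 0.84 (permutation p = 0.00118, adjusted p = 0.00315) and Spearman's rho = 0.65 (permutation p = 0.00845, adjusted p = 0.0193), which fell to r = 0.48 without C26 02 and C26 03 and so rests on those livers. The clock gene Per1 and Tsc22d3, a glucocorticoid-induced leucine zipper, gave r = 0.68 (permutation p = 0.00202, adjusted p = 0.00462) and Spearman's rho = 0.75 (permutation p = 0.00140, adjusted p = 0.00373). Some pairs that did not pass join genes of related function. Igfbp1, an insulin-repressed binding protein, ran from 30.1 CPM in C26 08 to 199 in C26 03 and from 40.4 CPM in C26-TDCA 08 to 267 in C26-TDCA 02 (SD 0.99), while the gluconeogenic Pck1 stayed within 2416 to 3766 CPM and 2385 to 3248 CPM (SD 0.20). That pair gave r = 0.18 (permutation p = 0.502, adjusted p = 0.574) and Spearman's rho = 0.16 (permutation p = 0.562, adjusted p = 0.599). The metallothioneins Mt1 and Mt2, metal-binding proteins of the acute phase, gave r = -0.12 (permutation p = 0.668, adjusted p = 0.668) and Spearman's rho = -0.05 (permutation p = 0.872, adjusted p = 0.872), with SDs of 0.19 and 0.29. Saa1 and Alb gave r = 0.35 (permutation p = 0.219, adjusted p = 0.270) and Spearman's rho = 0.36 (permutation p = 0.201, adjusted p = 0.268). Car3 and Lcn2 gave r = -0.16 (permutation p = 0.559, adjusted p = 0.596) and Spearman's rho = -0.27 (permutation p = 0.308, adjusted p = 0.352). Leaving out 1 liver gave 7 to 10 pairs past the threshold, and the 13 livers 7.

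Clustering of the 300 most variable genes of at least 10 CPM by their centred values, with no marker gene chosen, put 251 of them in 6 modules. Module 1 held 145 genes, led by Cyp3a11, Ces1f, Car3, Hsd3b5 and Cyp2c29, and took in 13 cholesterol synthesis genes, 12 of drug metabolism, 10 growth hormone and sex-biased genes and 5 clock genes. Module 2, of 36 genes, was led by A2m, Reg3b and Cdkn1a and held Asns, Sox9, Cd14 and Prelp. Module 3, of 26 genes, was led by Cyp17a1, the glucocorticoid-responsive factor Zbtb16 and Btg3 and held Ppargc1a, the coactivator of fasting metabolism. Module 4, of 23 genes, was led by the nuclear receptor Nr2c2 and the kinase Hipk2. Module 5, of 13 genes, was led by Etnppl, a phospholyase of periportal cells, and Igfbp2 and held the urea cycle enzyme Asl, Cyp8b1 and Cyp7b1, while Cyp7a1 lay in module 1. Module 6, of 8 genes, held Gpam and Acaca, enzymes of lipid synthesis. Modules were chosen on these values, and their tightness in them is no finding.

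Modules built on the 8 C26 livers alone were therefore read in the 8 C26-TDCA livers, which that clustering did not use. The first, of 157 genes around Cyp3a11 and Car3, had a mean pairwise r of 0.50 there, the second, of 59 genes around A2m and Cyp17a1, one of 0.46, the third, of 34 genes around Nr2c2, one of 0.36, and the fourth, of 15 genes around Etnppl, one of 0.57. The fifth, of 9 genes led by Gtpbp4-ps1 and Got1, had 0.026, against 0.047 over all 300 genes. The first 4 lay above the value over all 300 genes, and the fifth did not. The slopes on the marker genes gave a like reading. Of the 658 genes called with Car3 in C26 livers alone, 631 (95.9%) had the same sign of slope in C26-TDCA livers, where 64.8% of all genes did. The shares were 593 of 617 (96.1%, against 67.2%) with A2m, 570 of 580 (98.3%, against 68.6%) with Dbp, 266 of 268 (99.3%, against 63.9%) with Sqle and 602 of 689 (87.4%, against 57.8%) with Cyp7a1. In C26-TDCA livers alone 197 genes were called with Car3, 138 with Dbp, 30 with Sqle, 4 with A2m and none with Cyp7a1 in edgeR's quasi-likelihood test.

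**Figure D5:**
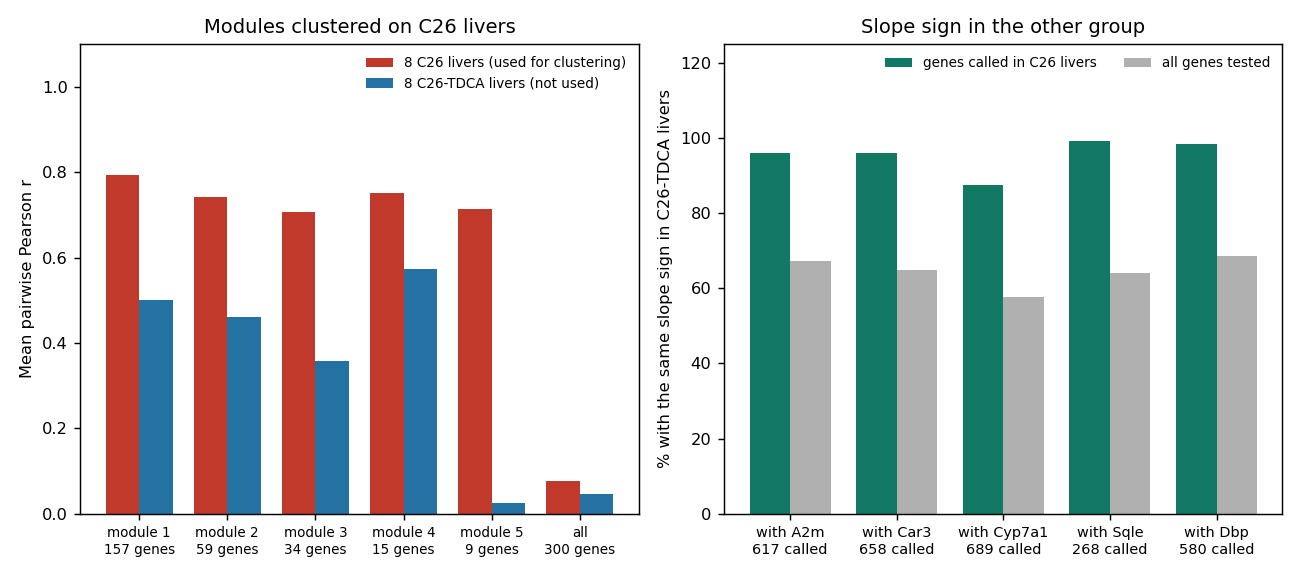
The left panel gives the mean pairwise Pearson r of modules found in the 8 C26 livers, there (red) and in the 8 C26-TDCA livers (blue). The right panel gives the percentage of genes with the same slope sign in both groups, for genes called in C26 livers (green) and for all genes tested (grey); called genes kept their sign in 87.4% to 99.3%.

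Other lists also had members that correlated with each other. Cytosolic ribosomal protein genes had a median pairwise r of 0.88 in C26 and 0.77 in C26-TDCA livers, yet a median SD of only 0.16 log2 units, and none of 38 was called with any of the 6 marker genes. With the length and GC slopes as covariates 15 had a negative slope on Car3, 2 a negative one on Dbp and 1 a positive one on A2m. Nuclear subunits of oxidative phosphorylation had a median pairwise r of 0.80 and 0.78 at a median SD of 0.19, with the slopes on A2m given above. MHC class II presentation genes had 0.83 and 0.60 at an SD of 0.47, led by the transactivator Ciita (0.75). Interferon-stimulated genes had a median pairwise r of 0.33 and 0.49. None of 29 had an SD above 1, which at 0.943% of all genes tested does not set the list apart. Of the 29 interferon-stimulated genes 7 had a positive slope on Car3, against 5.16% of all genes, with 4 without C26 01 and 0 over the 13 livers. Lists with a median pairwise r near 0 included metallothioneins and iron (-0.036 and -0.072), and gluconeogenesis, fasting and insulin-FoxO targets (0.061 and 0.14), and the latter held Igfbp1, G6pc (0.84) and Asns (0.75). The length and GC slopes of the libraries also differed between livers (0.37 to 0.53 and -0.027 to 0.33), and their part in the pairwise r was not tested.

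Markers of cells other than hepatocytes differed between livers as well. Kupffer cell markers, of the resident macrophages, summed to 577 to 842 CPM in C26 and 710.1 to 918 CPM in C26-TDCA livers. Their median SD was 0.21 and no marker exceeded 0.5, which 216 of the 7312 genes of at least 10 CPM did. Bile duct markers summed to 245 to 739.5 and 255 to 618 CPM, against 33 to 50.1 CPM in sham livers. Krt19 was near 0.536 CPM at the C26 median. Only 3 of the 8 tested bile duct markers had a mean of at least 10 CPM, so that the sum rests mostly on those 3. Erythroid markers summed to 159 to 631 CPM in C26 and 152 to 320.1 CPM in C26-TDCA livers, highest in C26 04. Of 17 T and NK cell markers 3 were tested. Trat1, a T cell receptor-associated adaptor, had an SD of 1.12 and ran from 3.41 CPM in C26 02 to 96.5 in C26 01, while Cd3d, Cd3e, Cd3g and Cd8a were not among the genes tested. Trat1 made up nearly all of the summed level of 97.3 CPM in C26 01. The 3 tested markers did not move together, with a median pairwise r of -0.23 in C26 and -0.12 in C26-TDCA livers. Of 18 exocrine pancreas markers only the elastase gene Cela1 was tested. It stood at 49.2 CPM in C26-TDCA 07 and at or below 13.8 CPM in the other tumour-bearing livers, with 32.5 to 39.3 CPM in sham livers. Of 14 markers of C26 carcinoma and proliferating epithelium 6 were tested, Krt8 and Krt18 among them, with sums of 359 to 529 and 336 to 433 CPM. The same sum was 199 to 255 CPM in sham livers, which carried no tumour. The epithelial and gut genes Krt20, Cdx1 and Cdx2 were not among the genes tested. The part of these cell markers in the gene results was not tested.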

How the data were processed

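The table of raw gene counts that the authors deposited was used, with whole-number counts per gene and no normalization (values of 0 included). Per the submitters' processing notes, reads were handled with HISAT2 2.2.1 and featureCounts 2.0.3, with Trimmomatic 0.40, bcl2fastq 2.17, FastQC and DESeq2 1.42.0 also listed, and GRCm38 as the build. Annotation release, strand setting and treatment of multi-mapped reads: not given in the sources used here. Totals were 17.5 to 28.3 M, and genes with low counts were removed with edgeR's filter at a minimum count of 10. TMM-scaled log2 CPM (prior count 2) was centred on the mean of each group of 8. The SD has 14 degrees of freedom. Slopes on 6 marker genes were tested with edgeR 4.0.16 (glmQLFit, glmQLFTest; R 4.3.3), adjusted over all genes, with DESeq2 1.42.0 as an alternative, and the procedure was tested on simulated data. Correlations used two-sided permutation tests that shuffled livers within groups (100000 shuffles, smallest p 1e-05; Benjamini-Hochberg over 16 pairs or 12 library relations). The 300 most variable genes were clustered by average linkage on 1 minus r, at a distance of 0.5, keeping clusters of at least 8 genes.

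The text names genes from the 25 most and 8 least variable genes of at least 10 CPM with an established symbol, the 3 most and 1 least variable of each list, the 6 strongest followers of each marker gene in each direction, the genes of the pairs, and the 6 most variable of each module; others are said to be named after their values were seen, or are list members given with their list's count. The members, marker genes, pairs and lists were chosen with earlier results of these data known. The 13 livers, the covariates and the fits in single groups were chosen after seeing the data. Alternatives were another prior count, no filter, DESeq2 size factors, the median absolute deviation, omission of single livers, each group alone, a replicate block, library slopes or Car3 as covariates, and 13 livers. P-values measure the spread between these livers only. Promoters came from RefSeq (GRCm38.p6). The sham livers entered no test. Some genes and 1 of the pairs are not reported here.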

Additional observations from a re-analysis of the deposited data

Results flagged for a closer look

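In 5 of 98 groups of 8 values examined, 1 liver lay so far from the others that its gap to the nearest, divided by the whole range, passed Dixon's 95% limit for 8 values. Chance flags about 1 in 20 groups, so that this number is about what chance gives. On the log2 scale these were Mt1 in C26 livers (gap 0.622 of the range; C26 06 high at 2316 CPM, against 1502 to 1768). In the C26-TDCA group they were Cyp7a1 (0.530; C26-TDCA 02 low at 2.73 CPM, next 17.6), Serpina4-ps1, a pseudogene of the kallistatin family (0.684; C26-TDCA 03 low at 4.93 CPM, next 33) and Per1 (0.527; C26-TDCA 01 low at 24.3 CPM, next 37.6). The slope of log2 CPM on length in C26-TDCA livers had a gap of 0.639, with C26-TDCA 07 low at 0.398 against 0.481 to 0.527 in the others.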

How the results depend on the processing

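The number of genes with an SD above 1 (131) was 252 with a prior count of 0.5, 256 with no filter on low counts, 63 from the median absolute deviation, 247 in C26 livers alone and 104 in C26-TDCA livers alone, and 120 to 167 when single livers were left out. Leaving out single livers gave 688 to 1724 genes with A2m (1310 in all livers), 860 to 1455 with Car3 (1278), 34 to 628 with Cyp7a1 (453), 267 to 903 with Sqle (671), 702 to 1789 with Dbp (1704) and 0 to 4 with S100a8 (0), 7 to 10 gene pairs and 1 to 3 library measures. With length and GC slopes as covariates the counts were 297 with A2m, 91 with Cyp7a1, 966 with Dbp and 4 with S100a8. With Car3 as a covariate they were 59 with A2m, 0 with Cyp7a1, 10 with Sqle, 453 with Dbp and 9 with S100a8. Over the 13 livers they were 138 with A2m, 243 with Car3, 0 with Cyp7a1, 37 with Sqle, 292 with Dbp and 1 with S100a8. C26 livers alone gave 617, 658, 689, 268 and 580 with A2m, Car3, Cyp7a1, Sqle and Dbp, and C26-TDCA livers alone 4, 197, 0, 30 and 138. DESeq2's Wald test gave 881 with Cyp7a1 and 58 with S100a8. Fewer livers enter the group-wise and 13-liver fits; for the other settings the cause was not tested.

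Same-numbered livers of the groups deviated together at r above 0.1 in 5 of 8 numbers (-0.22 to 0.39), and 3 of 8 correlated best with their own number. Whether same-numbered livers share anything beyond the number was not tested. The replicate block gave 469 genes with A2m, 905 with Car3, 15 with Cyp7a1, 482 with Sqle, 492 with Dbp and 0 with S100a8. For correlations, the block leaves each C26 liver and its same-numbered C26-TDCA liver with equal and opposite deviations. An r under the block therefore rests on 8 differences between same-numbered livers. In that setting 9 gene pairs and 6 library measures passed. The mirrored values are not separate livers, so that no conclusion is drawn from these 2 counts. The r of the GC slope with the second axis, recomputed under the block, turned to -0.76 (0.67 without it). That of Car3 with Lcn2 was -0.95 under the block and -0.16 without it; the cause was not tested.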

Other observations

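C26-TDCA 02 was highest of the 16 livers in a small set of transcripts. Lars2, the mitochondrial leucyl-tRNA synthetase, was at 1598 CPM there, with the predicted genes Gm23935 at 2037, Gm24270 at 62.9 and Gm15564 at 54.4 CPM. In the other 15 tumour-bearing livers Lars2 ran from 141 to 856 CPM, Gm23935 from 178 to 1148, Gm24270 from 5.07 to 39.5 and Gm15564 from 4.54 to 33.2 CPM. All 4 were next highest in C26 05. Whether they share reads was not tested, so that the level of the Lars2 transcript itself is uncertain. These 4 genes were named after their values were seen.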
